A study of Mus musculus with 12 samples.

Results

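The endoplasmic reticulum (ER) stress genes were examined as a set of 10, namely Hspa5, Hsp90b1, Sdf2l1, Dnajb9, Pdia4, Herpud1, Xbp1, Atf4, Ddit3 and Trib3. Every probe set annotated to one of these genes was taken, whatever its values, which gave 22 probe sets of 45037 and 10 genes of 18193. The arrays measured whole mouse kidney in 4 groups of 3 mice. Wild-type (WT) mice and mice deficient for the AT1A angiotensin receptor (KO) were compared at baseline and after a 2 day infusion of the peptide hormone angiotensin II (ANG II, 1 ug/kg/min). All mice were males of 2.5 months from an F1 cross of C57BL6 and 129/SvEv, and all labels name an NS diet. The sources used here do not give the knockout allele, nor a treatment of the baseline mice beyond that diet. Values are ratios, in which each array is divided by the median that the probe set has across all 12 of them, and a ratio of 1 is the middle of the series. Such ratios show changes of a gene between groups and no level of one gene against another, and whether kidney markers or those of other tissues were absent cannot be read from them. In whole kidney, fewer cells of a type and less RNA per cell cannot be told apart.

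Proteins that enter the ER are folded there by chaperones and by enzymes that form disulfide bonds. When unfolded proteins build up, 3 sensors in the ER membrane (IRE1, PERK and ATF6) start the unfolded protein response. IRE1 splices the mRNA of the transcription factor XBP1, ATF6 is cut to release a transcription factor, and PERK phosphorylates the translation factor eIF2alpha, which lowers protein synthesis but raises translation of ATF4. ATF6 and XBP1 drive genes for chaperones and for ER-associated degradation, while ATF4 drives Ddit3, which encodes CHOP, and Trib3. ATF4 is also reached from other eIF2alpha kinases, a route called the integrated stress response. XBP1 splicing and eIF2alpha phosphorylation are not measured by such arrays, only transcript abundance.

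ATF6 acts on some of these genes through the ER stress response element (ERSE), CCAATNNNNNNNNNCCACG, where N is any base. Each gene's promoter window, 250 bases before to 50 after the transcription start, was searched on both strands in RefSeq sequence of assembly GRCm38.p6, and all 10 members had one. ERSE stood in 39 of 32851 promoters (0.119%), and among the members in those of Hspa5 and Hsp90b1. A second form, ERSE-II (ATTGGNCCACG), stood in 12 promoters (0.0365%), among them that of Herpud1. The stretches with these matches are shown, and capitals mark the matches. Hspa5 and Hsp90b1 had called differences between genotypes, and Herpud1, with the second form, had none that passed. Dnajb9 and Pdia4 (on 1450620_at) also had called differences between genotypes, with neither form in their windows. Whether the element bears on the calls was not tested. The stretch of Hspa5 is chr2:34771940-34772089 (plus strand, positions -150 to -1 from the start), that of Hsp90b1 is chr10:86705524-86705664 (minus strand, -220 to -80), and that of Herpud1 is chr8:94386309-94386399 (plus strand, -120 to -30).
Hspa5: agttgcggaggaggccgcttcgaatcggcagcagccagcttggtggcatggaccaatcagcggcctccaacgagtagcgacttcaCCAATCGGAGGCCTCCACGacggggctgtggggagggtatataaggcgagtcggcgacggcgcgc
Hsp90b1: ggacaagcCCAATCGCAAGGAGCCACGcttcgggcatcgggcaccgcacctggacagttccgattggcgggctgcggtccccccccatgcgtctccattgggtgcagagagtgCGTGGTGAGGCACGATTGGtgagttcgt
Herpud1: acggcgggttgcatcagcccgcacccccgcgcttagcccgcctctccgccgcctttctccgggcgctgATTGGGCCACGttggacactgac
Hsp90b1 held the element 2 times, once in each orientation. The core TGATGNAA of the element bound by ATF4 and CHOP matched 3.97% of all promoters and those of Herpud1 and Trib3, where the Herpud1 match begins at -112. The core TGACGTGG of an XBP1 element matched 0.676% of promoters and none of the members' windows. A match of letters is a description and not a measured binding site.

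Few probe sets of the ER stress genes passed the test for a change with the infusion. In WT, 3 of the 22 probe sets (13.6%) passed the test, 2 higher and 1 lower, where 24.1% of all 45037 probe sets did so, 10.9% higher and 13.3% lower (limma on log2 ratios, Benjamini-Hochberg adjusted p under 0.05 over all probe sets). In KO, 0 of 22 passed with limma against 9.91% of all probe sets. An unadjusted p under 0.05 was found for 9 of 22 in WT and 4 in KO. The median log2 change of the members was 0.03 in WT and 0.01 in KO, beside 0.05 in each for all probe sets. Without regard to sign, it was 0.22 in WT and 0.13 in KO, beside 0.18 and 0.14 for all probe sets. Under ANG II 6 of 22 (27.3%) differed between the genotypes, 5 higher and 1 lower in KO, against 19.8% of all probe sets, 11.7% higher and 8.17% lower. At baseline 1 of 22 (4.55%) did and was higher in KO, against 6.52% of all probe sets and 4.87% higher. The members' median absolute log2 difference between genotypes was 0.24 under ANG II and 0.23 at baseline, beside 0.17 and 0.12 for all probe sets. The comparisons share arrays, and their counts are not independent of each other. Normalizing the quantiles again lowered the share of higher calls among all probe sets called from 44.9% to 32.9% in the WT response and raised it from 58.8% to 70.9% in KO against WT under ANG II.

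Some other measures moved with the same groups. Macrophage markers were higher in KO for 5 of 6 at baseline and for 4 of 6 under ANG II, beside 4.52% and 13.7% of all genes. The mean log2 ratio of these markers ran from 0.85 to 1.44 in KO at baseline, -0.08 to 0.35 in infused KO, -0.47 to 0.04 in WT at baseline and -0.81 to -0.41 in infused WT. Markers of plasma cells, which are rich in ER chaperones, and of B cells formed a list of 8. In KO 3 of 8 were higher at baseline and 1 of 8 under ANG II, the latter near the 13.7% of all genes. Their means were 0.28 to 0.43 in KO and -0.29 to -0.22 in WT at baseline, and 0.06 to 0.23 and -0.17 to -0.07 under ANG II. The median log2 difference of these markers under ANG II was -0.02, as over all genes. One of them, Derl3, is also in the degradation list below. Endothelial markers were lower in WT with ANG II for 2 of 4, beside 14.5% of all genes. Under ANG II KO differed from WT for 5 of 7 proximal tubule markers (3 higher, 2 lower), 2 of 4 endothelial (both higher) and 2 of 6 pancreas markers (1 each way), and for none of the distal tubule, collecting duct, podocyte, adrenal and adipose lists. Of all genes 13.7% were higher and 7.87% lower there. The Actb 3' minus 5' control difference was 0.07 to 0.15 in infused WT and -0.05 to 0.03 in the other 9 arrays. That of Gapdh did not set infused WT apart, with -0.06 to 0.06 there and -0.05 to 0.03 in the other 9. The part of these measures in the ER results was not tested. The single Agtr1a probe set read 1.356 to 1.397 in WT at baseline, 0.957 to 1.003 in infused WT, 0.923 to 1.043 in KO at baseline and 0.917 to 1.054 in infused KO, and its place relative to the deletion is not stated in those sources. Agtr1a is on chromosome 13, and no member lies there.

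**Figure D1:**
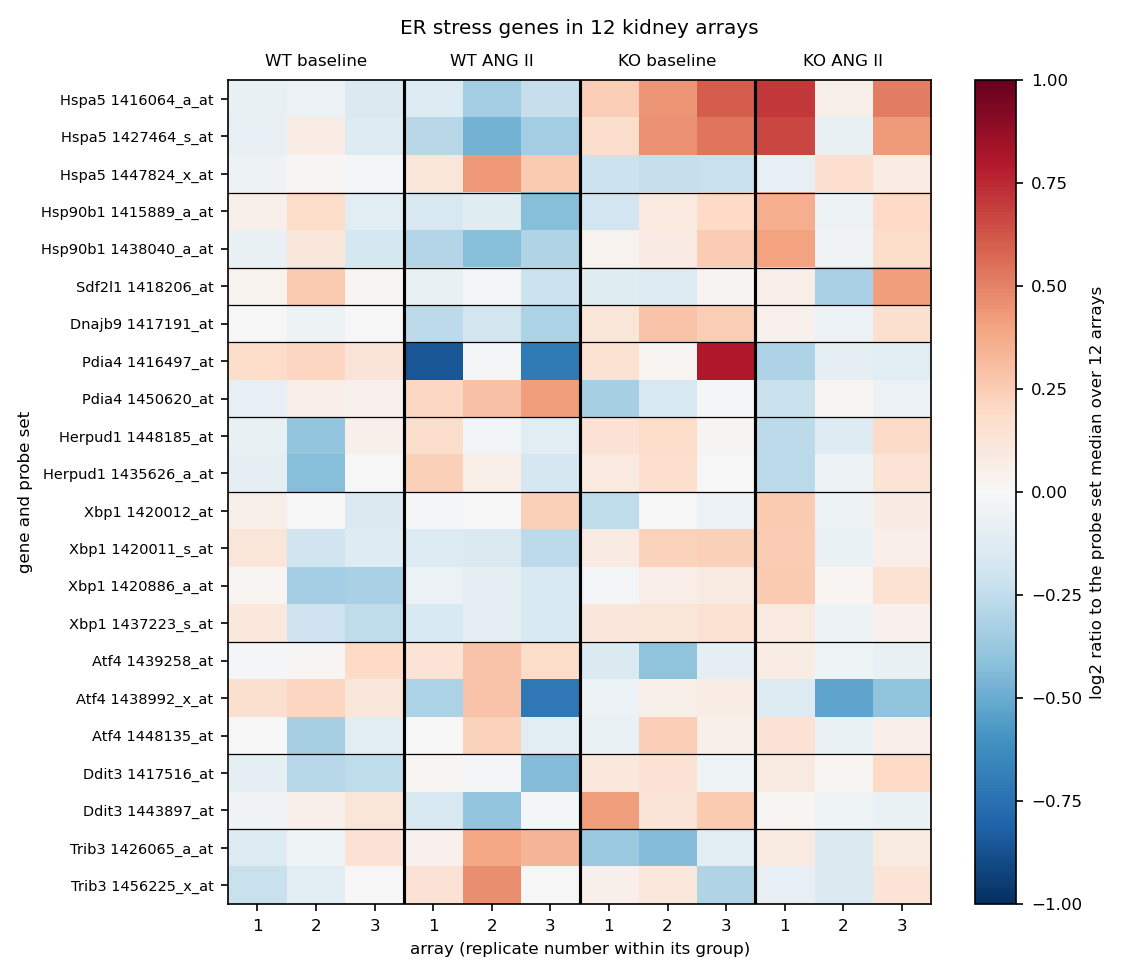
Colour shows the log2 ratio to the probe set median for each of the 22 probe sets (rows) in each of the 12 arrays (columns, 3 per group). The first row of Hspa5 is red in all 6 KO arrays and blue in all 6 WT arrays, with ratios of 1.041 to 1.63 in KO and 0.786 to 0.959 in WT. In the row of 1447824_x_at, KO lies below WT at baseline without overlap, and the infused groups overlap.

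Hspa5 encodes BiP, the main HSP70 chaperone of the ER, which also holds the sensors inactive. Its RefSeq probe set (1416064_a_at) read 0.949, 0.959 and 0.907 in WT at baseline and 0.908, 0.786 and 0.852 in WT under ANG II. In KO the ratios were 1.183, 1.356 and 1.519 at baseline and 1.63, 1.041 and 1.422 under ANG II. All 6 KO arrays thus lay above all 6 WT arrays, as they did for 442 of 45037 probe sets (0.981%). Under ANG II Hspa5 was 1.58-fold higher in KO than in WT, a log2 difference of 0.66 ± 0.14 (SE, n = 3 per group, adjusted p = 0.00553, limma). This difference passed in all 24 alternatives tried, with adjusted p between 0.000513 and 0.0273. At baseline it was 1.43-fold higher in KO (log2 0.52 ± 0.14, adjusted p = 0.0411), and that call was lost in 7 of 24 alternatives, among them the removal of any 1 WT baseline array or of KO baseline array 2 or 3 (adjusted p of 0.0801 to 0.138). The infusion itself moved Hspa5 by a log2 of -0.15 in WT (adjusted p = 0.455) and 0.00 in KO (adjusted p = 0.986), neither of which passed.

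The other Hspa5 probe sets did not all repeat this. Probe set 1427464_s_at read 0.947, 1.051 and 0.915 in WT at baseline, 0.824, 0.719 and 0.787 in WT under ANG II, 1.128, 1.375 and 1.448 in KO at baseline, and 1.587, 0.949 and 1.34 in KO under ANG II. It tracked the RefSeq probe set (r = 0.977 over the 12 arrays, a description) and was 1.63-fold higher in KO under ANG II (log2 0.70 ± 0.15, adjusted p = 0.00691, limma). At baseline its log2 difference of 0.43 did not pass (adjusted p = 0.112). The third probe set, 1447824_x_at, ran against both, with r = -0.69 to the first. It read 0.963, 1.01 and 0.99 in WT at baseline, 1.088, 1.35 and 1.201 in WT under ANG II, 0.863, 0.847 and 0.857 in KO at baseline, and 0.947, 1.121 and 1.055 in KO under ANG II. Its ratio rose 1.22-fold in WT with the infusion (log2 0.29 ± 0.09, adjusted p = 0.0343), a call kept in 13 of 22 alternatives. The call was lost with only the 2 groups compared, after quantile normalization, and without any 1 WT baseline array or infused WT array 2 or 3. It was not kept with the replicate number as a block in the WT groups alone (adjusted p = 0.0585). Neither 1447824_x_at nor 1427464_s_at has a RefSeq transcript in the annotation. Names in _s_at and _x_at both mark probes that can match other transcripts.

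Hsp90b1 encodes GRP94, the HSP90 chaperone of the ER. Its RefSeq probe set (1415889_a_at) read 1.035, 1.135 and 0.932 in WT at baseline, 0.895, 0.921 and 0.743 in WT under ANG II, 0.877, 1.072 and 1.147 in KO at baseline, and 1.283, 0.965 and 1.145 in KO under ANG II. The infused WT arrays were below every array of both infused KO and untreated WT, while the baseline groups overlapped. Its second probe set (1438040_a_at) had 0.951, 1.082 and 0.887 in WT at baseline, 0.815, 0.744 and 0.811 in WT under ANG II, 1.023, 1.058 and 1.194 in KO at baseline, and 1.323, 0.977 and 1.138 in KO under ANG II. Under ANG II Hsp90b1 was higher in KO by a log2 of 0.53 ± 0.11 on 1438040_a_at (1.44-fold, adjusted p = 0.00647, limma) and of 0.40 ± 0.13 on 1415889_a_at (1.32-fold, adjusted p = 0.0445). The first passed in 22 of 22 alternatives, and the second in 13 of 24. The second was lost with only the 2 groups compared, quantile normalization, array weights or the replicate block (adjusted p = 0.0598). It was also lost without WT baseline array 1 or 2, infused WT array 2 or 3, KO baseline array 2 or infused KO array 1 or 3 (adjusted p of 0.0502 to 0.167). At baseline the differences were 0.17 and -0.01, and neither passed. The WT change with ANG II was -0.30 and -0.28, with adjusted p of 0.0716 and 0.132, so it was not called.

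Dnajb9 encodes ERdj4, a co-chaperone of BiP and a known XBP1 target. It read 1.005, 0.963 and 0.995 in WT at baseline, 0.834, 0.88 and 0.803 in WT under ANG II, 1.089, 1.219 and 1.184 in KO at baseline, and 1.028, 0.962 and 1.116 in KO under ANG II. KO stood above WT in both conditions without overlap. The difference passed under ANG II (1.23-fold, log2 0.30 ± 0.08, adjusted p = 0.0217, limma) and not at baseline (log2 0.24, adjusted p = 0.106). The call under ANG II was kept in 19 of 24 alternatives. It was lost with only the 2 groups compared, after quantile normalization, or without infused WT array 3 or infused KO array 1 or 3. The WT change of Dnajb9 with the infusion was -0.24 (adjusted p = 0.0513). Sdf2l1, which works beside ERdj chaperones, had 1.022, 1.201 and 1.014 in WT at baseline, 0.95, 0.986 and 0.862 in WT under ANG II, 0.918, 0.911 and 1.018 in KO at baseline, and 1.047, 0.8 and 1.338 in KO under ANG II. The infused KO arrays of Sdf2l1 spread over the whole range, and it passed in no comparison (lowest adjusted p = 0.308).

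**Figure D2:**
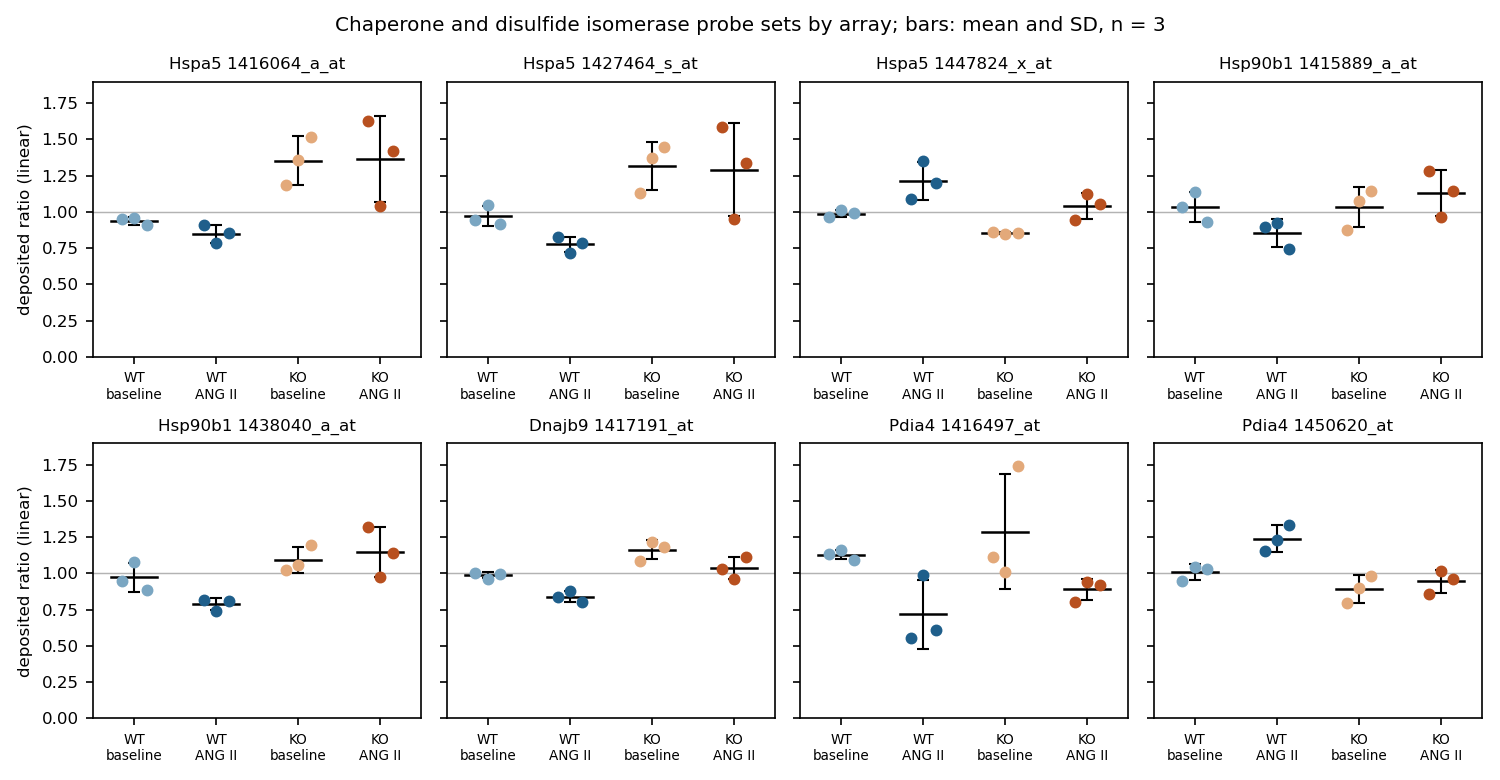
Points are the linear ratios of single arrays for 8 probe sets, and bars are the group mean and SD (n = 3). Hspa5 1416064_a_at had a mean of 1.36 ± 0.299 in infused KO and 0.849 ± 0.0611 in infused WT, and the second infused KO array was the lowest of its group for both upper Hspa5 and both Hsp90b1 probe sets.

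Pdia4 encodes a protein disulfide isomerase of the ER, and its 2 probe sets gave opposite answers. Probe set 1416497_at read 1.134, 1.159 and 1.094 in WT at baseline and 0.552, 0.989 and 0.611 in WT under ANG II, with 1.113, 1.011 and 1.742 in KO at baseline and 0.806, 0.941 and 0.922 in KO under ANG II. Every infused array was below every untreated array of its genotype. It fell 1.63-fold in WT (log2 -0.70 ± 0.21, adjusted p = 0.0255, limma), and by 0.50 on the log2 scale in KO (adjusted p = 0.139, not called). The WT call was kept in 19 of 24 alternatives. It was lost with array weights, or without WT baseline array 1 or 2 or infused WT array 1 or 3 (adjusted p of 0.0659 to 0.0925). On 1450620_at the ratios were 0.946, 1.046 and 1.031 in WT at baseline, 1.156, 1.228 and 1.337 in WT under ANG II, 0.793, 0.897 and 0.984 in KO at baseline, and 0.859, 1.016 and 0.958 in KO under ANG II. There Pdia4 rose in WT (1.23-fold, log2 0.30 ± 0.10, adjusted p = 0.0435, called in 10 of 23 alternatives) and was 1.31-fold lower in KO than in WT under ANG II (log2 -0.39 ± 0.10, adjusted p = 0.0148, called in 19 of 22). Among the settings that lost the WT call were quantile normalization, array weights and the removal of any 1 WT baseline array, infused WT array 2 or 3, KO baseline array 2 or infused KO array 3. The call under ANG II was lost after quantile normalization, or without infused WT array 3 or infused KO array 1. With neither probe set designed on a RefSeq transcript, no direction can be given for Pdia4 as a gene.

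Herpud1, which encodes an ER membrane protein of the degradation machinery, did not pass in any comparison on either probe set. Its RefSeq probe set (1448185_at) read 0.949, 0.759 and 1.034 in WT at baseline, 1.13, 0.983 and 0.924 in WT under ANG II, 1.107, 1.135 and 1.017 in KO at baseline, and 0.832, 0.914 and 1.143 in KO under ANG II. No infused group stood apart from its baseline group, and the log2 change with ANG II was 0.15 in WT and -0.19 in KO. The second probe set tracked it (r = 0.964 over the 12 arrays, a description), with changes of 0.21 and -0.15. Between genotypes, Herpud1 was 0.26 higher in KO at baseline on each (adjusted p = 0.267 and 0.264), with no overlap on 1435626_a_at, and differed by -0.08 and -0.10 under ANG II.

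The transcription factors showed no called change. Xbp1 had 4 probe sets, and on that designed on RefSeq (1420886_a_at) the ratios were 1.015, 0.789 and 0.799 in WT at baseline, 0.961, 0.934 and 0.898 in WT under ANG II, 0.988, 1.048 and 1.064 in KO at baseline, and 1.197, 1.012 and 1.109 in KO under ANG II. KO was higher by a log2 of 0.25 to 0.26 on 3 of the 4 at baseline, with adjusted p of 0.135 to 0.171, and the fourth (1420012_at) differed by -0.08. Atf4 read 0.99, 1.01 and 1.149 in WT at baseline, 1.097, 1.216 and 1.134 in WT under ANG II, 0.903, 0.756 and 0.936 in KO at baseline, and 1.055, 0.969 and 0.952 in KO under ANG II on 1439258_at. Here KO was below WT in both conditions without overlap, by a log2 of 0.28 at baseline (adjusted p = 0.104) and 0.21 under ANG II (adjusted p = 0.137), and neither passed. The other 2 Atf4 probe sets gave 0.22 (1448135_at) and -0.14 (1438992_x_at) for KO against WT at baseline. With ANG II, 1439258_at changed by 0.13 in WT and 0.20 in KO and 1448135_at by 0.19 and -0.03, and none passed. On 1438992_x_at the ratios were 1.116, 1.16 and 1.082 in WT at baseline, 0.804, 1.22 and 0.608 in WT under ANG II, 0.961, 1.039 and 1.053 in KO at baseline, and 0.913, 0.692 and 0.758 in KO under ANG II. Its changes were -0.41 in WT (adjusted p = 0.116) and -0.38 in KO (adjusted p = 0.202). Without infused WT array 2, which stood above the other 2, the WT change was -0.68 and passed (adjusted p = 0.0052). ATF4 is controlled largely at translation, which these arrays do not read.

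Ddit3, the gene of the pro-apoptotic factor CHOP, was likewise not called. Its RefSeq probe set (1417516_at) read 0.942, 0.819 and 0.84 in WT at baseline, 1.012, 0.988 and 0.74 in WT under ANG II, 1.078, 1.106 and 0.973 in KO at baseline, and 1.066, 1.014 and 1.15 in KO under ANG II. KO exceeded WT in both conditions without overlap, by 0.28 at baseline (adjusted p = 0.171) and 0.25 under ANG II (adjusted p = 0.139) on the log2 scale. The infusion changed it by 0.06 in WT and 0.03 in KO, while the second probe set (1443897_at) gave -0.23 and -0.30, with adjusted p of 0.112 and 0.0815. Trib3, a pseudokinase that feeds back on ATF4 and CHOP, had ratios of 0.908, 0.969 and 1.106 in WT at baseline, 1.031, 1.31 and 1.269 in WT under ANG II, 0.774, 0.74 and 0.926 in KO at baseline, and 1.066, 0.904 and 1.066 in KO under ANG II on 1426065_a_at. Its log2 change with ANG II was 0.27 in WT (adjusted p = 0.113) and 0.32 in KO (adjusted p = 0.108), and on 1456225_x_at it was 0.31 and 0.02.

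**Figure D3:**
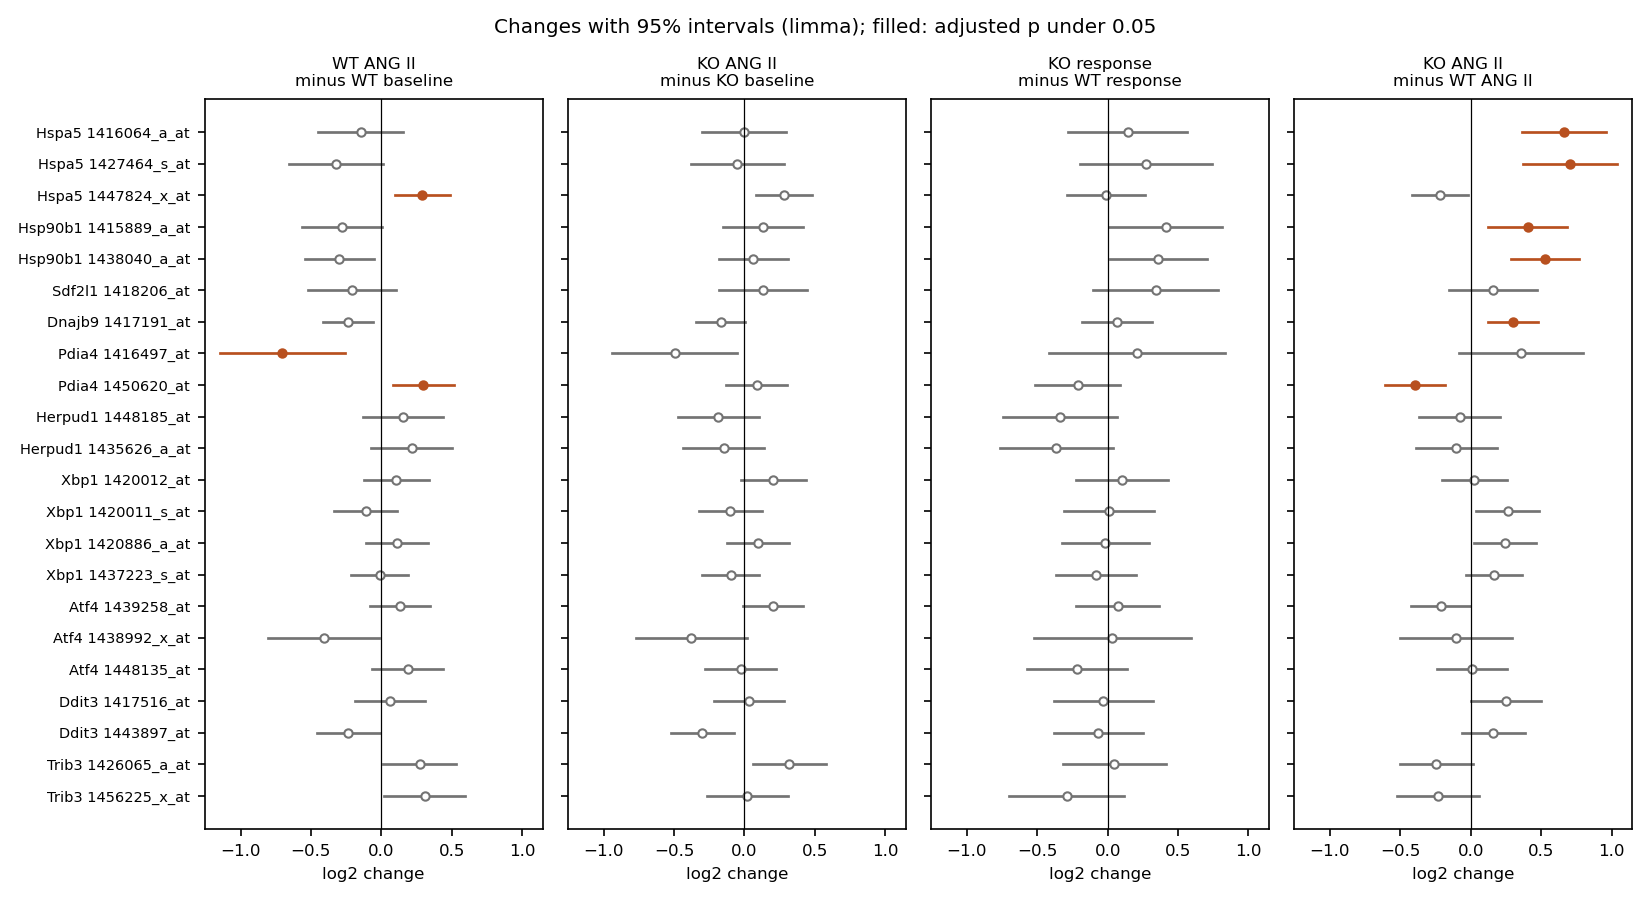
Points are log2 changes of the 22 probe sets in 4 comparisons, bars are 95% intervals from limma, and filled points passed an adjusted p under 0.05. In the panel of KO against WT under ANG II, 5 filled points lie above 0, those of Hspa5, Hsp90b1 and Dnajb9, and 1 lies below, Pdia4 1450620_at at -0.39.

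Whether the response to ANG II differed between genotypes was tested as the KO response minus the WT response. None of the 22 member probe sets passed (limma, lowest adjusted p = 0.187), where 9.78% of all probe sets did, and the count stayed at 0 under every alternative run. The 2 with an unadjusted p under 0.05 were both of Hsp90b1, with differences of 0.41 and 0.36 on the log2 scale and 95% intervals of 0.01 to 0.81 and 0.01 to 0.71. For Hspa5 (1416064_a_at) the difference was 0.14, with an interval of -0.28 to 0.57. Over the members the intervals reached from -0.77 to 0.83, so differences of that size were within the error for some probe sets.

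Groups that did not overlap were counted as well. With ANG II in WT, 6 of 22 member probe sets lay wholly lower and 2 wholly higher, where 18.5% and 20.4% of all probe sets did. In KO 4 lay lower and 2 higher, beside 15.2% and 19.4%. KO lay wholly above WT for 7 member probe sets at baseline and below for 3 (14% and 16.9% of all probe sets). Under ANG II it was 9 above and 2 below (17.7% and 17.4%). The median log2 difference of the members between KO and WT was 0.20 at baseline and 0.16 under ANG II, beside -0.03 and -0.04 for all probe sets.

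Further genes of the pathway were read on 1 probe set each in 6 lists, of which 108 of 112 genes were measured. With ANG II in WT, 34 of the 108 fell (31.5%) and 11 rose (10.2%), beside 14.5% and 9.61% of all genes. In KO 6 fell and 4 rose, beside 5.73% and 4.28% of all genes. KO was higher than WT under ANG II for 43 (39.8%) and lower for 7 (6.48%), where 13.7% and 7.87% of all genes were. At baseline KO was higher for 7 and lower for none (4.52% and 2.04% of all genes), with 20 of the 108 at an unadjusted p under 0.05. The difference of the responses passed for 14 genes in the positive direction and 4 in the negative (6.95% and 3.29%). After quantile normalization the counts were 14 lower in WT and 24 higher in infused KO, the lowest over the alternatives. The shares of all genes fell as well, from 14.5% to 8.92% and from 13.7% to 7.66%. Without any 1 WT baseline array or infused WT array 2 or 3, 8.38% to 12.1% of all genes fell in WT, and without infused WT array 1, 16% did. Without infused WT array 2, 10.2% of all genes were higher in infused KO, and 8.95% without infused KO array 1. The list counts below with an array left out stand beside these shares.

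Disulfide isomerases and oxidases had the largest share of called genes among the 6 lists in both the WT response and KO against WT under ANG II. In WT 8 of 13 fell and 0 rose, beside 14.5% and 9.61% of all genes. Among those that fell were Pdia5 (log2 -0.58 ± 0.10, adjusted p = 0.00105, limma), the ER retention factor Erp44 (-0.58 ± 0.09, adjusted p = 0.000708) and Pdia3 (-0.47 ± 0.08, adjusted p = 0.00128). In KO 0 of 13 passed, with 2 at an unadjusted p under 0.05, where 4.28% of all genes rose and 5.73% fell. The responses differed for 5 in the positive direction, beside 6.95% of all genes, the largest being Pdia5 at 0.81, Pdia6 at 0.71 and Erp44 at 0.68. Under ANG II 10 of 13 were higher in KO, beside 13.7% of all genes, with Pdia5 at 0.74, Pdia6 at 0.72 and Erp29 at 0.70. Pdia6 read 0.91, 1.011 and 0.989 in WT at baseline, 0.796, 0.728 and 0.769 in WT under ANG II, 0.904, 1.017 and 1.012 in KO at baseline, and 1.467, 1.053 and 1.279 in KO under ANG II. The infused groups thus stood on either side of the baseline groups. Over the alternatives the WT falls numbered 3 to 8 and the genes higher in infused KO 5 to 10. The falls were 4 or 5 without any 1 WT baseline array or without infused WT array 2 or 3, where 8.38% to 12.1% of all genes fell. The genes higher in infused KO were 5 without infused KO array 1 and 6 without array 3, where 8.95% and 8.7% of all genes were higher.

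**Figure D4:**
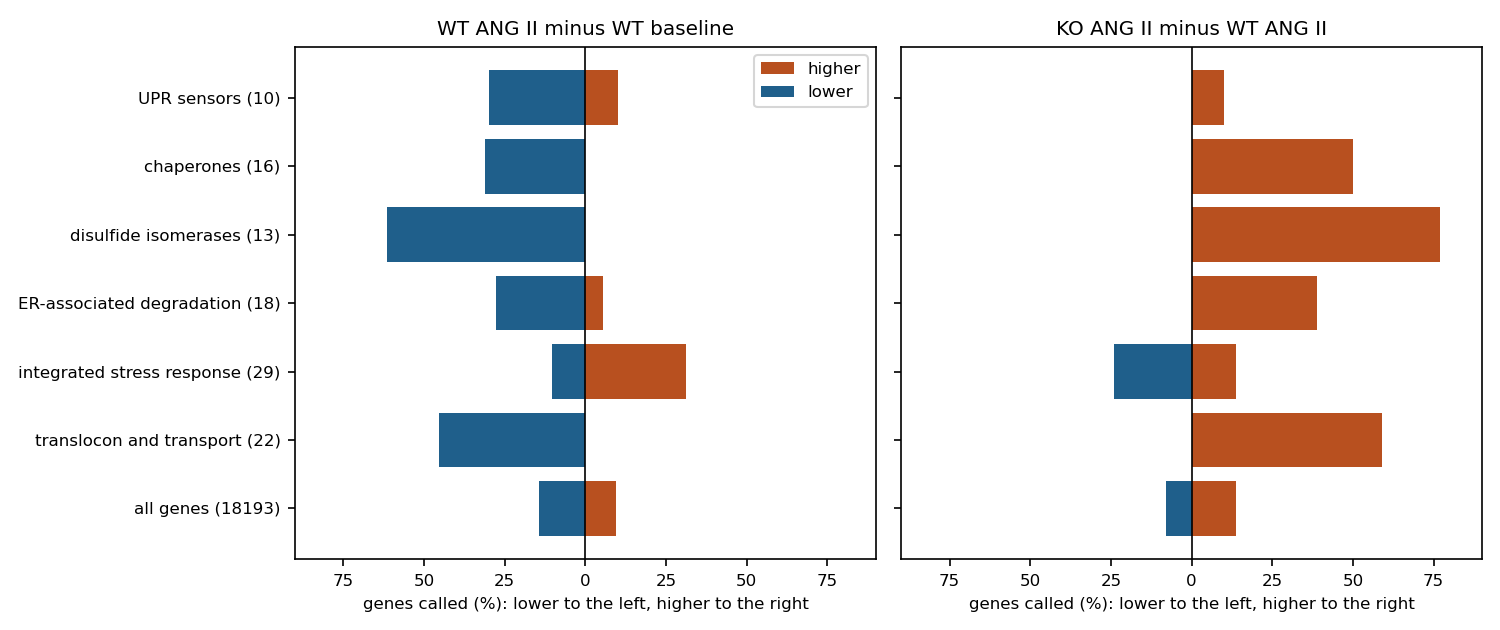
Bars show the percent of measured genes in each pathway list, and of all 18193 genes, that passed the test, to the left for lower and to the right for higher (gene numbers in brackets). Of the 13 disulfide isomerases 61.5% were lower in WT under ANG II and 76.9% higher in infused KO than in infused WT, while among integrated stress response genes 9 of 29 rose in WT.

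Among 16 further chaperones and co-chaperones, 5 fell in WT and 0 rose, beside 14.5% and 9.61% of all genes. Under ANG II 8 were higher in KO than in WT and 0 lower, beside 13.7% and 7.87%. The lectin chaperone gene Canx fell by 0.77 ± 0.12 on the log2 scale in WT (adjusted p = 0.00057, limma), and also in KO by 0.41 (adjusted p = 0.0395). Dnajb11, a BiP co-chaperone, fell by 0.50 in WT and its responses differed by 0.66 ± 0.16 (adjusted p = 0.0179). With the replicate number as a block in the WT groups alone, 3 chaperones fell in place of 5, and also 3 without WT baseline array 1 or 3 or infused WT array 2, with 2 to 5 over the alternatives. The 8 ran from 4 to 9, with 5 without infused KO array 1. Creld2 and Manf, both secreted ER stress proteins, had the largest called differences of this list between infused genotypes, at 1.23 ± 0.19 (adjusted p = 0.000723) and 1.13 ± 0.19 (adjusted p = 0.00116). They were also the 2 of 16 chaperone list genes higher in KO at baseline, beside 4.52% of all genes. The baseline differences were 0.73 (adjusted p = 0.0377) and 0.77 (adjusted p = 0.0261). Creld2 read 0.89, 0.793 and 0.826 in WT at baseline, 0.833, 0.633 and 0.611 in WT under ANG II, 1.165, 1.52 and 1.492 in KO at baseline, and 1.959, 1.11 and 1.931 in KO under ANG II, so every KO array lay above every WT array.

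In the degradation list 5 of 18 genes fell in WT and 1 rose, beside 14.5% and 9.61% of all genes, and 7 were higher in infused KO than in infused WT, beside 13.7%. Over the alternatives the falls numbered 2 to 8, with 2 without infused WT array 3, 3 without WT baseline array 1 and 8 without infused WT array 1, and the genes higher in infused KO numbered 4 to 10. Edem1, which delivers misfolded glycoproteins for degradation, read 1.034, 0.978 and 1.022 in WT at baseline, 0.684, 0.701 and 0.603 in WT under ANG II, 0.895, 0.955 and 1.09 in KO at baseline, and 1.118, 1.031 and 1.195 in KO under ANG II. Its fall was found in WT (log2 -0.61 ± 0.10, adjusted p = 0.000752, limma), and the responses differed by 0.80 ± 0.13 (adjusted p = 0.00266). Sel1l and Syvn1, partners in the main ubiquitin ligase of the ER, were higher in infused KO by 0.68 (adjusted p = 8.24e-05) and 0.63 (adjusted p = 0.00235). Of 22 genes for the translocon, signal peptidase and ER to Golgi transport, 10 fell in WT and 13 were higher in infused KO, with 0 in the other direction in each. Those counts ran from 5 to 10 and from 5 to 13 over the alternatives, with 6 falls without WT baseline array 1, and 8 and 7 genes higher in infused KO without infused WT array 2 and infused KO array 1. Ssr2, a translocon-associated protein, fell by 0.63 in WT, and the coat protein gene Sec23b was 0.84 ± 0.09 higher in infused KO (adjusted p = 4.63e-05). Sec62 went another way, falling by 0.94 in KO (adjusted p = 0.000112) after a baseline difference of 0.59 in favour of KO (adjusted p = 0.00392). Among 10 sensors and their proteases, 3 fell and 1 rose in WT, beside 14.5% and 9.61% of all genes. The 3 became 0 after quantile normalization and 1 without any 1 WT baseline array or without infused WT array 2 or 3. Under ANG II 1 of 10 was higher in KO, beside 13.7% of all genes, and it became 0 after quantile normalization. Atf6b, a relative of the sensor ATF6, had the largest called changes of this list, at -0.42 in WT (adjusted p = 0.00481) and 0.47 for infused KO against infused WT (adjusted p = 0.00264).

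In the integrated stress response list 9 of 29 genes rose and 3 fell in WT, beside 9.61% and 14.5% of all genes. Under ANG II 7 were lower and 4 higher in KO than in WT, beside 7.87% and 13.7%. No test compared this list with the others. Chac1, a glutathione-degrading target of ATF4, read 0.94, 0.929 and 0.748 in WT at baseline, 2.563, 4.172 and 1.272 in WT under ANG II, 1.089, 0.738 and 0.893 in KO at baseline, and 1.06, 0.905 and 1.087 in KO under ANG II. The infused WT arrays were above all others but spread over a wide range (log2 change 1.46 ± 0.30, adjusted p = 0.0042, limma). Sesn2, a sestrin induced through ATF4 and p53, read 0.815, 0.768 and 0.804, then 1.973, 1.594 and 1.67, in WT without and with ANG II, and 1.169, 1.031 and 1.14, then 0.969, 0.635 and 0.795, in KO. Sesn2 rose by 1.13 ± 0.13 in WT (adjusted p = 0.000102) and fell by 0.50 in KO (adjusted p = 0.0292), and the responses differed by -1.62 ± 0.18 (adjusted p = 0.000171). Ppp1r15b, a phosphatase subunit for eIF2alpha, fell by 0.61 in WT (adjusted p = 0.00329). In KO, Ddit4 and Cebpb fell by 1.29 (adjusted p = 0.0282) and 1.03 (adjusted p = 0.000804) from a baseline at which both exceeded WT.

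**Figure D5:**
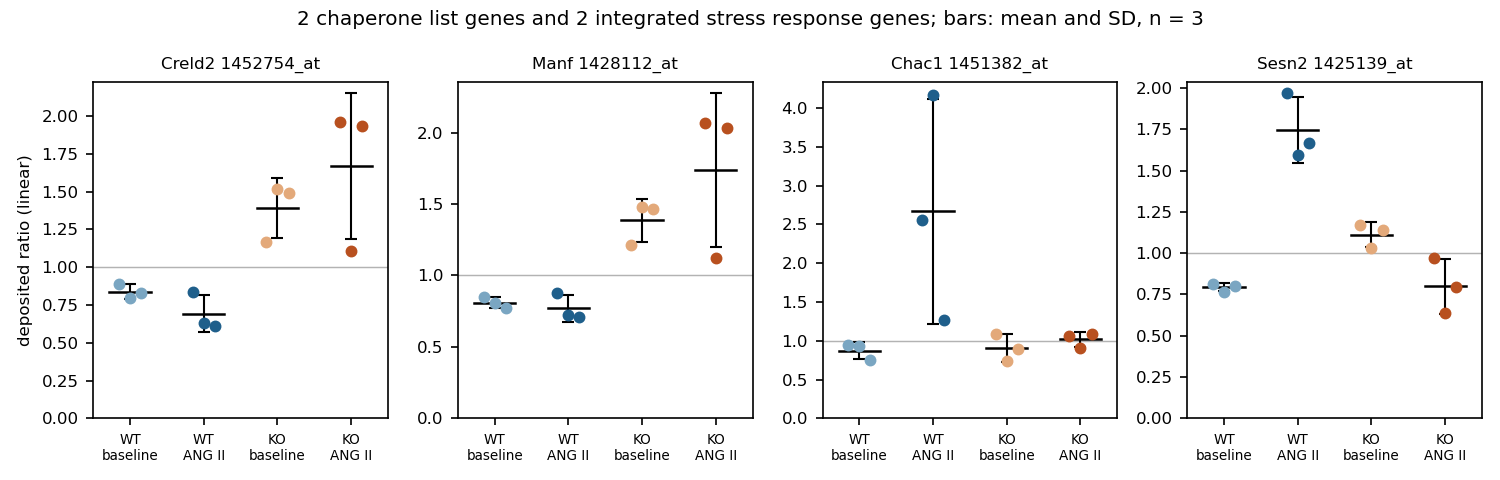
Points are the linear ratios of single arrays for Creld2, Manf, Chac1 and Sesn2, with the group mean and SD (n = 3) and a separate vertical scale in each panel. Creld2 and Manf are high in KO, Chac1 and Sesn2 in infused WT, where Chac1 spans 1.272 to 4.172.

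ERSE letters were also searched in the 89 pathway list genes with a promoter entry. The element stood in 8 of them, namely Calr, Canx, Creld2, Derl3, Dnajc3, Ero1b, Pdia6 and Syvn1, and ERSE-II stood in Dnajb11. No comparison of genes with and without it was made.

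The genes whose ratios ran closest to Hspa5 (1416064_a_at) over the 12 arrays were Creld2 (r = 0.966), Manf (r = 0.959), Stip1 (r = 0.953), Cdk2ap2 (r = 0.95) and Nt5e (r = 0.943). With group means removed r was 0.839 to 0.919. These genes were picked for a high r over the same arrays, so that value is partly given by the choice. The spread of Hspa5 was largest in infused KO (SD of log2 0.33, beside 0.04 in WT at baseline), which weighs most in it. Those closest to Ddit3 were Stk19 (r = 0.919), Kctd18 (r = 0.907), Gnl3 (r = 0.876), Prmt3 (r = 0.875) and Cibar1 (r = 0.874). Among the members, the highest r with Hspa5 on the plainest-named probe sets was that of Dnajb9 at 0.796, then Hsp90b1 at 0.731 and Ddit3 at 0.624, and the lowest that of Atf4 at -0.63. With group means removed Hsp90b1 had 0.742, Xbp1 0.682, Sdf2l1 0.603 and Dnajb9 0.473, while Atf4 had 0.07 and Ddit3 0.05, so these last values over all arrays mostly follow the group means. These are descriptions over arrays that share groups, and no p is given.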

How the data were processed

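Total RNA from snap-frozen kidneys of 12 mice was hybridised to Affymetrix Mouse Genome 430 2.0 arrays, 1 per mouse. The deposited values are linear ratios to the probe set's own median, a division read from the values, since 45099 of 45101 medians lay within 0.002 of 1. RMA is named in the submitters' processing notes. Without intensities, no filter on dim probe sets and no signal over background could be set. Log2 ratios of 45037 probe sets (64 controls left out) were fitted with limma 3.58.1 in R 4.3.3, with 4 group means over 12 arrays, 8 residual and 5.83 prior degrees of freedom, and two-sided tests. The 5 comparisons were each adjusted by Benjamini-Hochberg. The procedure was tested on simulated data.

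The members and the 6 pathway and 10 marker lists were chosen with earlier results of these data known. List genes were read on the plainest-named probe set (_at before _a_at, _s_at and _x_at), and the up to 3 largest called changes per list and comparison could be named. Likeness was Pearson's r. Same-numbered WT arrays deviated together (r of 0.128 to 0.186), and those of the other comparisons did not all do so, so the block was an alternative. Other alternatives were the variance trend, the 2 groups alone, quantile normalization, median centring, array weights, a spread filter, 1 probe set per gene or their mean, no _s_at or _x_at, robust moderation and each array left out. Those on RefSeq design, the infused arrays numbered 2, the WT block and the lists were added after seeing the data. The number of arrays, 3 per group, limits precision.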

Additional observations from a re-analysis of the deposited data

How the results depend on the processing

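Of 2455 recomputed probe set changes, 2384 kept their side of the threshold, 53 lost and 18 gained a call, and 0 reversed a call. Among the 2384, 79 changed sign without being called on either side. In the WT response 3 member probe sets passed, and 1 passed with only the 2 groups compared, 1 after quantile normalization, 1 with array weights and 0 of the 7 RefSeq-designed ones. Over all probe sets the WT calls fell from 10876 to 7725 with the 2 groups, 5704 after quantile normalization and 10075 with array weights. Leaving out 1 array gave 0 to 4 member calls, with 0 without WT baseline 1 or 2 or infused WT 3 and 1 without WT baseline 3. Calls over all probe sets were then 5773, 7876, 6921 and 8799, in that order. In KO the 0 became 2 with array weights, where calls over all probe sets rose from 4465 to 6962. With 1 array left out it was 0 to 1. At baseline the 1 became 0 with the variance trend or quantile normalization, 2 with the 2 groups alone or without both infused arrays numbered 2, and 0 to 2 with 1 array left out. Over all probe sets the baseline calls went from 2936 to 3032, 3068, 3274 and 2487 in the settings named, in that order. Under ANG II the 6 became 3 after quantile normalization, 3 of 10 with 1 probe set per gene, 3 of the 7 RefSeq-designed ones, and 3 to 7 with 1 array left out. Over all probe sets the calls under ANG II fell from 8934 to 4063 after quantile normalization. With 1 probe set per gene, 4224 of all 18193 genes were called. For the difference of the responses the count was 0 throughout. With the replicate block over all arrays the counts were 3, 0, 0, 1 and 5, in the order WT response, KO response, their difference, baseline and ANG II, and in the WT groups alone 2. The block changed no member calls other than those of Hsp90b1 1415889_a_at and Hspa5 1447824_x_at. Beyond those constructed with fewer arrays or probe sets, the cause was not tested. Ratios show no signal over background, so dim probe sets could not be told from bright ones.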
